A study of Homo sapiens with 6 samples.

Results

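The genes described here carry out or control the synthesis of cholesterol and fatty acids and the movement of sterols. They were chosen by name, as the probes annotated with 1 of 34 listed symbols, and the list was made with earlier results of these data known. Of these, 32 genes had a probe, 1 each, among the 17687 genes that the array names, and FDFT1 and MYLIP had none. They comprised 17 enzymes of sterol synthesis, 5 genes that control the sterol regulatory element-binding proteins (SREBPs), 5 genes of sterol transport and 5 enzymes of fatty acid synthesis. RMG1, established from an ovarian clear cell carcinoma, was transfected with siControl or with 1 of a pair of siRNAs against CPNE8, siCPNE8 #A or #B. OVCAR3, an established line that stands for high-grade serous ovarian carcinoma, received siControl or an siRNA against BHLHE41, siBHLHE41 #A or #B. Each of these 6 conditions was measured on 1 Clariom S array, so the targeted gene and the line cannot be told apart, and the letters #A and #B name different siRNAs in the 2 lines. The sample labels give DMEM as the medium of RMG1 and RPMI for OVCAR3, the paper's methods give the reverse, and medium and line cannot be told apart either. How long after transfection the RNA was taken was not found in the sources used here.

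Cells make cholesterol from acetyl-CoA through mevalonate, isoprenoid diphosphates, squalene and lanosterol. When sterols in the endoplasmic reticulum are scarce, SCAP carries the SREBPs to the Golgi, where they are cleaved, and the released fragment enters the nucleus and activates promoters that hold sterol regulatory elements, usually beside boxes bound by NF-Y or Sp1. When sterols are plentiful, the INSIG proteins keep SCAP in the endoplasmic reticulum. SREBP2, the product of SREBF2, mainly serves the cholesterol genes, its own gene among them, and SREBP1, the product of SREBF1, mainly the fatty acid genes.

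All values are log2 signals as the authors deposited them, and each log2 ratio sets an siRNA array against siControl of the same line. A gene was called above background on an array where it exceeded the 95th percentile of its negative controls, which lay between 7.86 and 8.47. Within a line, array pairs correlated with r between 0.990 and 0.993 over the transcript probes (6 pairs), and pairs from different lines with r between 0.920 and 0.928 (9 pairs). CPNE8 read 13.76 for siControl, 10.67 for #A and 11.92 for #B in RMG1, and BHLHE41 read 14.51, 12.99 and 13.63 in OVCAR3, so the targeted gene was lowest with #A in either line. All 5 epithelial markers were above background on all 6 arrays. None of 4 leukocyte and 5 hepatocyte markers was above it on any array, and of 4 fibroblast markers only COL1A2 was. NAPSA, a marker of clear cell carcinoma, was not above background in RMG1, between 4.40 and 4.58, and the serous marker ESR1 was above background in neither line. WT1 read 8.71 with siControl, 8.23 with #A, where it was below background, and 8.05 with #B in OVCAR3. PAX8 and MUC16, listed with the serous markers, were above background on every array of either line. PAX8 was higher in RMG1, with a mean of 15.42 against 14.08, so it does not mark OVCAR3 apart from RMG1. MUC16 was higher in OVCAR3, with a mean of 14.50 against 11.85. In these bulk samples of a cell line, fewer cells with a transcript and less of it per cell cannot be told apart. Separate cultures are stated nowhere in the sources used here, so p-values measure only the spread between these samples, which may be technical.

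Most of the pathway was expressed in either line. Of the 32 genes, 26 were above background on all 6 arrays, ABCA1 on the 3 RMG1 arrays only and MVK only with siCPNE8 #B. PMVK and MVD, which act after MVK on the way from mevalonate to isopentenyl diphosphate, were above background on no array, and neither were the intestinal sterol transporter NPC1L1 and the efflux transporter ABCG1. The levels of MSMO1, which removes methyl groups from sterol intermediates, lay between 15.49 and 16.82 and those of the stearoyl-CoA desaturase SCD between 15.20 and 15.97. Values above 16 lie beyond the full scale of a 16-bit scanner on the log2 scale. A step that gives such values is not described in the sources used here, and it could widen or narrow a ratio. The plot of levels shows each gene on each array beside the background.

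**Figure D1:**
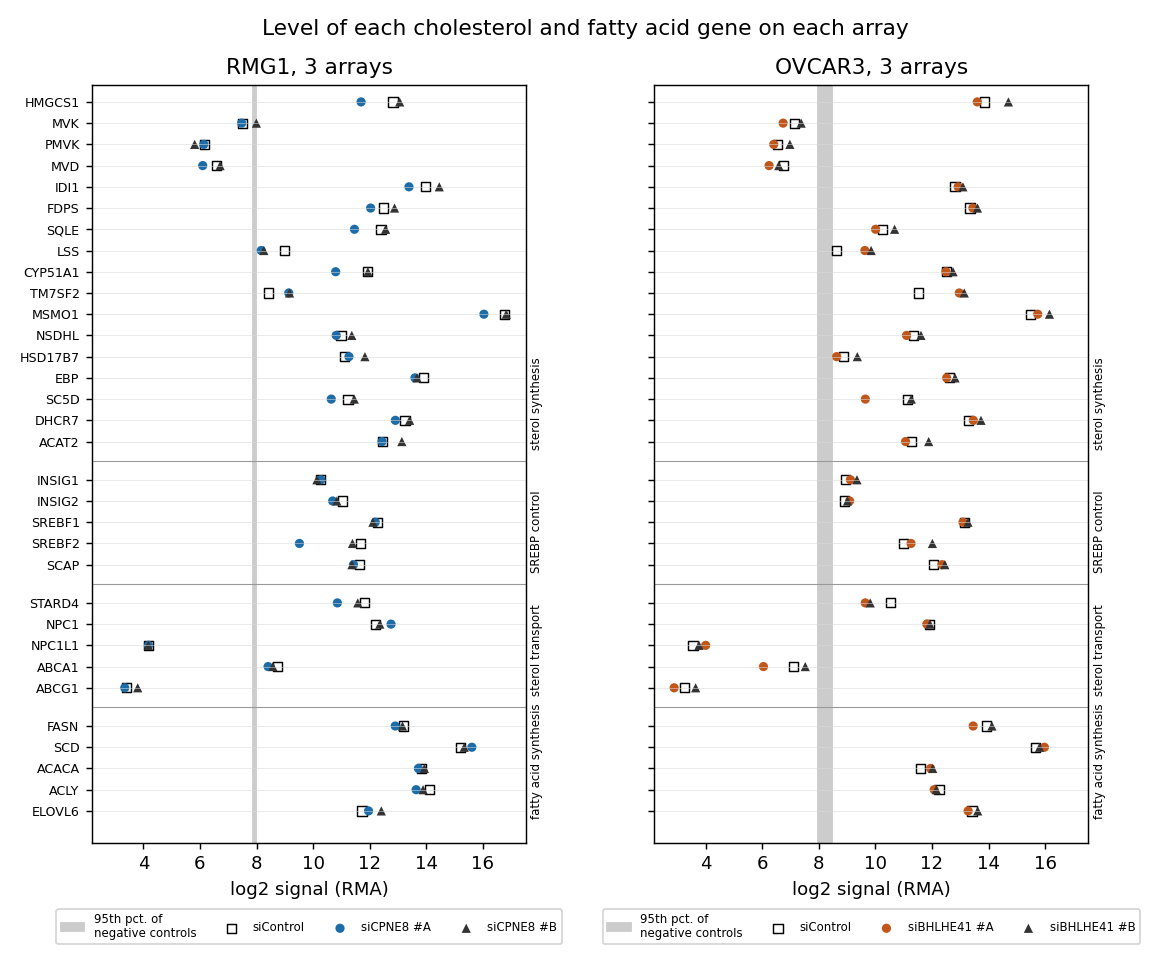
Log2 signal (x axis) of the 32 genes (y axis, grouped by role) on the 3 RMG1 arrays and the 3 OVCAR3 arrays, with 1 point per array and a grey band over the range of the 95th percentile of the negative controls of those arrays. SREBF2 with siCPNE8 #A, at 9.51, stands apart from the other RMG1 arrays at 11.66 and 11.39, and TM7SF2 lies lower on every RMG1 array than on any OVCAR3 array.

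RMG1 cells with siCPNE8 #A had less SREBF2 signal and less signal of several cholesterol enzymes than cells with siControl, and cells with siCPNE8 #B did not show this shift. SREBF2 read 11.66 for siControl, 9.51 for #A and 11.39 for #B. The #A array was thus far below the others, at 0.225-fold of siControl, whereas #B was at 0.826-fold. The mean log2 ratio of SREBF2 was -1.21 ± 1.32 (SD, n = 2 siRNAs), and limma over both siRNAs gave a standard error of 0.71 with adjusted p = 0.947. The other genes of SREBP control stayed closer to siControl on either array. SREBF1 read 12.29 for siControl, 12.19 for #A and 12.11 for #B, SCAP 11.65, 11.42 and 11.37, and INSIG2 11.03, 10.69 and 10.84. INSIG1, itself a target of SREBPs, read 10.27, 10.27 and 10.13.

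HMGCS1, which makes the HMG-CoA from which mevalonate is formed, read 12.82 for siControl, 11.69 for #A and 13.06 for #B. Lanosterol demethylase, encoded by CYP51A1, read 11.92, 10.80 and 11.93, and squalene epoxidase, encoded by SQLE, 12.40, 11.46 and 12.56. In each of these genes the #A array was low and the #B array was at or above siControl. HMGCS1 was at 0.459-fold of siControl with #A and 1.18-fold with #B, CYP51A1 at 0.460-fold and 1.01-fold, and SQLE at 0.521-fold and 1.12-fold. MSMO1 was at 0.608-fold with #A and 1.05-fold with #B. IDI1, which interconverts the isopentenyl diphosphates, and SC5D, which introduces a double bond late in the pathway, lay just above the limit of 0.66-fold with #A, at 0.670-fold and 0.664-fold. They were at 1.41-fold and 1.17-fold with #B.

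With siCPNE8 #A, 7 of the 32 genes (21.9%) were under 0.66-fold of siControl: HMGCS1, SQLE, LSS, CYP51A1, MSMO1, SREBF2 and STARD4. Of all 21448 transcript probes 8.79% were, and of the 7103 probes above background on all 6 arrays 6.5%. Only TM7SF2 was over 1.5-fold with #A, against 8.66% of all probes and 5.9% of those above background. With #B, 1 gene, LSS, was under 0.66-fold (7.07% of all probes, 2.86% of those above background), and 4 genes, TM7SF2, HSD17B7, ACAT2 and ELOVL6, were over 1.5-fold (6.18% and 3.65%). HSD17B7, a ketoreductase of sterol synthesis, read 11.11 for siControl, 11.26 for #A and 11.83 for #B, and whether its probe also binds the near-identical pseudogene HSD17B7P2 was not tested. ACAT2, the cytosolic thiolase that joins acetyl-CoA units, read 12.45, 12.43 and 13.13. These are counts on single arrays and carry no replicate check. The median log2 ratio of the 17 sterol synthesis genes was -0.45 with #A and 0.22 with #B, while that of all transcript probes was 0.00 and -0.01.

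The promoter windows of SREBF2 and HMGCS1 are shown because SREBF2 had the lowest ratio of the 32 genes with #A and HMGCS1 had the widest gap between the siRNAs among the RMG1 enzymes. Both were chosen after their values were seen. The windows run from 250 bases before to 50 bases after the start of the gene in RefSeq (GRCh38.p14), chr22:41832855-41833154 on the plus strand for SREBF2 and chr5:43313363-43313662 on the minus strand for HMGCS1. Capitals mark matches, on either strand and not overlapping each other, to TCACNCCAC, a sterol regulatory element, to CCAAT, the box bound by NF-Y (ATTGG on the other strand), and to CACGTG, an E-box.
SREBF2: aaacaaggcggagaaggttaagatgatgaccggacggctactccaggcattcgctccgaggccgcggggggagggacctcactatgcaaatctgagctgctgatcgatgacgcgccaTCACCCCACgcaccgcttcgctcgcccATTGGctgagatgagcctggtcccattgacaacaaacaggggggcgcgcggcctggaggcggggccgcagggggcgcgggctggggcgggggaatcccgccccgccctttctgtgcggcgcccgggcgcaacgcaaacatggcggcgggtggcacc
HMGCS1: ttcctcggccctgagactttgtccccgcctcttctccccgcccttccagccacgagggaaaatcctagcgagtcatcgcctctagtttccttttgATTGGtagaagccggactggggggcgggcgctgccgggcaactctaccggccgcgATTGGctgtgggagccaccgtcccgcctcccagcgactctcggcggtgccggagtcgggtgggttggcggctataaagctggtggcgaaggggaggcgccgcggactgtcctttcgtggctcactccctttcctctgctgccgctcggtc
In the SREBF2 window the sterol regulatory element begins 133 bases before the start and the NF-Y box 106 bases before it. The HMGCS1 window holds NF-Y boxes 155 and 100 bases before the start. Of the 34 listed genes 29 had a window in the table. A CCAAT match was in 21 of the 29 windows (72.4%) and in 34.6% of 35116 windows of all genes, and GGGCGG, a GC box bound by Sp1 that is left in lower case, was in 27 of 29 (93.1%) and in 45% of all. TCACNCCAC was in 1 of 29 (3.45%), that of SREBF2, and in 1.13% of all, and CACGTG was in 5 of 29 (17.2%) and 7.26% of all. Only these exact letters were searched, so a window without TCACNCCAC is not shown to lack a sterol regulatory element. The windows of all genes were not limited to genes with a probe or above background on these arrays, so these shares do not compare like sets. A match describes the letters in a window and was not tested as a binding site. The gene body of SREBF2 overlaps SREBF2-AS1 and MIR33A.

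LSS and TM7SF2 were the genes past the fold limits with both siCPNE8 siRNAs, in opposite directions. Lanosterol synthase, the product of LSS, closes the sterol ring system, and TM7SF2 encodes a sterol reductase of the endoplasmic reticulum that acts after the CYP51A1 step. LSS read 8.97 for siControl, 8.17 for #A and 8.26 for #B in RMG1. Both siRNA arrays were below siControl and close to the background of 7.90 and 7.86. LSS was thus at 0.571-fold and 0.609-fold of siControl, on average -0.76 ± 0.06 on the log2 scale (SD, n = 2 siRNAs; limma standard error 0.26, unadjusted p = 0.024, adjusted p = 0.894). TM7SF2 read 8.41 for siControl, 9.14 for #A and 9.17 for #B, or 1.65-fold and 1.68-fold of siControl. Its mean log2 ratio was 0.74 ± 0.02 (SD, n = 2 siRNAs; limma standard error 0.26, unadjusted p = 0.025, adjusted p = 0.894). With the arrays shifted to 1 negative control median TM7SF2 was no longer past the limit with #A, and 0 genes were over 1.5-fold with both siRNAs. So, on the values as deposited, 1 of 32 genes (3.12%) was over 1.5-fold with both siRNAs, beside 2.56% of all transcript probes and 1.72% of those above background. The same number was under 0.66-fold, beside 2.69% and 1.22%, and these shares of the 32 genes are near the background. Limma called 0 of the 32 genes and 0 of all probes at an adjusted p under 0.05, with 2 genes and 5.51% of all probes at an unadjusted p under 0.05.

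The fatty acid enzymes stayed close to siControl in RMG1. Fatty acid synthase, FASN, read 13.20 for siControl, 12.90 for #A and 13.16 for #B. ACACA, the carboxylase that supplies malonyl-CoA, read 13.82, 13.72 and 13.93, and SCD 15.20, 15.61 and 15.34. ACLY, which releases acetyl-CoA from citrate, read 14.11, 13.64 and 13.88, below siControl on either array and within the fold limits. ELOVL6, an elongase of long-chain fatty acids, read 11.73, 11.96 and 12.41, past the limit with #B alone. Of the transport genes, STARD4, a cytosolic sterol carrier, read 11.81, 10.86 and 11.58, and NPC1, which exports cholesterol from lysosomes, 12.20, 12.75 and 12.36. STARD4 was at 0.515-fold with #A and within the limits with #B, and NPC1 stayed within the limits at 1.47-fold and 1.12-fold.

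**Figure D2:**
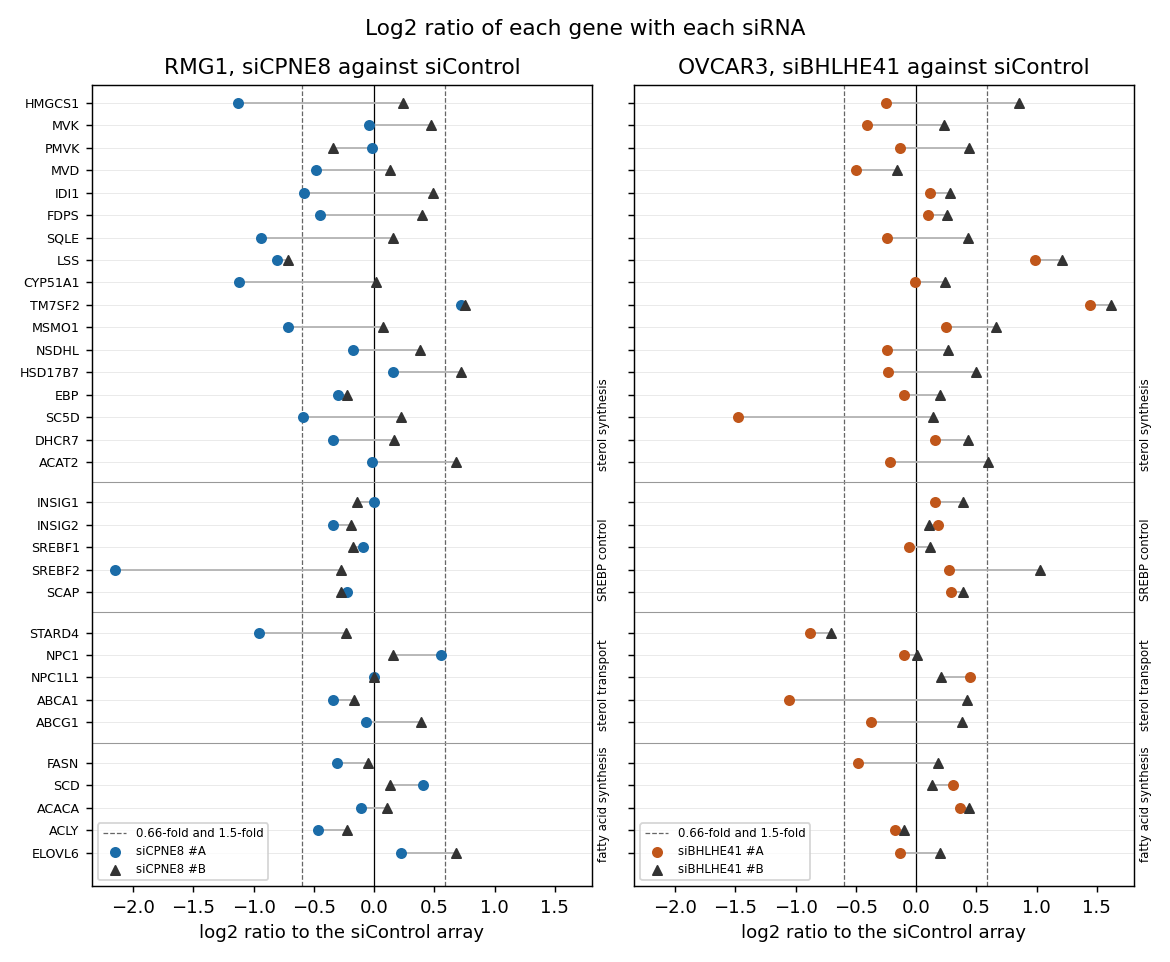
Log2 ratio to siControl (x axis) for each gene (y axis) with each siRNA, RMG1 on the left and OVCAR3 on the right. Circles are siRNA #A, triangles #B, each from 1 array, the grey line joins the 2 siRNAs, and dashed lines mark 0.66-fold and 1.5-fold. LSS and TM7SF2 have close ratios with either siRNA of a line, whereas HMGCS1, SREBF2 and SC5D are spread wide.

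In OVCAR3 cells LSS and TM7SF2 lay above siControl with both siBHLHE41 siRNAs and STARD4 below it. TM7SF2 read 11.52 for siControl, 12.97 for #A and 13.14 for #B, so both siRNA arrays stood well above siControl, at 2.72-fold and 3.07-fold. On average its log2 ratio was 1.53 ± 0.12 (SD, n = 2 siRNAs; limma standard error 0.26, unadjusted p = 0.00064, adjusted p = 0.858). LSS read 8.64 for siControl, 9.63 for #A and 9.85 for #B, again with siControl lowest. These were 1.99-fold and 2.32-fold of siControl, on average a log2 ratio of 1.10 ± 0.16 (SD, n = 2 siRNAs; limma standard error 0.26, unadjusted p = 0.0044, adjusted p = 0.858). STARD4 read 10.52 for siControl, 9.64 for #A and 9.82 for #B. Both siRNA arrays were low, at 0.544-fold and 0.614-fold, on average a log2 ratio of -0.79 ± 0.12 (SD, n = 2 siRNAs; limma standard error 0.35, unadjusted p = 0.060, adjusted p = 0.948).

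Of the 32 genes, 2 (6.25%) were therefore over 1.5-fold with both siBHLHE41 siRNAs, beside 3.09% of all transcript probes and 2.35% of those above background. The gene under 0.66-fold with both, STARD4, makes 3.12%, beside 2.13% and 1.22%. With 1 or 2 genes, these counts are no result about the group. Limma called 0 of the 32 genes and 0 of all probes at an adjusted p under 0.05, with 2 genes and 5.12% of all probes at an unadjusted p under 0.05.

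The windows of LSS, TM7SF2 and STARD4 are shown because these were the genes past a fold limit with both siRNAs of a line. They lie at chr21:46228725-46229024 (minus strand), chr11:65111622-65111921 (plus strand) and chr5:111512486-111512785 (minus strand) in GRCh38.p14, with capitals as above.
LSS: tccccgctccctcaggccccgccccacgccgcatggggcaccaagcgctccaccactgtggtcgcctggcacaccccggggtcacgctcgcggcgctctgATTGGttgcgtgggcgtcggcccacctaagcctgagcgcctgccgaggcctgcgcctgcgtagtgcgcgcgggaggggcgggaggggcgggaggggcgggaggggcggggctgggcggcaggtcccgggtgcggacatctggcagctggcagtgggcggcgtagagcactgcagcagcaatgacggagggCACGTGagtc
TM7SF2: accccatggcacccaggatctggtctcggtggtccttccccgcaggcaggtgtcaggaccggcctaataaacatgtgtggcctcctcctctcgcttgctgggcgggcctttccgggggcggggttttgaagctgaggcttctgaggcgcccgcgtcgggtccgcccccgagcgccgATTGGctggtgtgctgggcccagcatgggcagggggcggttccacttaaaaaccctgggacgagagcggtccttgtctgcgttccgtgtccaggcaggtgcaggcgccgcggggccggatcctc
STARD4: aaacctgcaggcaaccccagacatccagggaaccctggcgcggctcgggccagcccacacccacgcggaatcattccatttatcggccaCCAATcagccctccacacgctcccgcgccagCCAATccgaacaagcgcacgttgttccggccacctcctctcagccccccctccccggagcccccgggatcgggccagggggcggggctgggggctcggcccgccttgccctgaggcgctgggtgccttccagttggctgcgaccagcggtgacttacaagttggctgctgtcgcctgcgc
The LSS window has an NF-Y box 150 bases before the start and an E-box 40 bases after it. E-boxes are sites of basic helix-loop-helix factors, a family that includes BHLHE41 and BHLHE40 among others, and binding to these windows was not tested. BHLHE40 was at 1.82-fold of siControl with siBHLHE41 #A and 2.09-fold with #B in OVCAR3. In RMG1 it was at 1.47-fold with siCPNE8 #A and 1.26-fold with #B. The other windows with an E-box belong to ABCA1, INSIG1, SC5D and SCAP. In OVCAR3 these 4 genes were not past a limit with both siRNAs: INSIG1 had log2 ratios of 0.16 and 0.39, SCAP 0.29 and 0.39, SC5D -1.48 and 0.14, and ABCA1, above background on no OVCAR3 array, -1.05 and 0.42. TM7SF2 has an NF-Y box 74 bases before its start and no E-box in the window, and STARD4 has NF-Y boxes 161 and 130 bases before its start. The gene body of STARD4 overlaps STARD4-AS1, that of LSS overlaps LOC124905045 and SNORD159, and that of TM7SF2 overlaps no other gene.

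Most other sterol genes were above siControl with siBHLHE41 #B and near or below it with #A. HMGCS1 read 13.85 for siControl, 13.60 for #A and 14.70 for #B, and SREBF2 10.99, 11.26 and 12.02. The #B array was the highest for both genes, at 1.81-fold and 2.04-fold of siControl. MSMO1 was at 1.19-fold with #A and 1.59-fold with #B, and ACAT2 at 0.860-fold and 1.52-fold. With #B, 6 genes (18.8%) were over 1.5-fold, HMGCS1, LSS, TM7SF2, MSMO1, ACAT2 and SREBF2, against 7.88% of all probes and 5.48% of those above background, and STARD4 was under 0.66-fold, against 7.03% and 5.21%. With #A, LSS and TM7SF2 were over 1.5-fold (7.77% and 5.96%) and SC5D, STARD4 and ABCA1 under 0.66-fold (6.59% and 5.29%). SC5D read 11.13 for siControl, 9.65 for #A and 11.27 for #B, so the #A array alone was low. The median log2 ratio of the 17 sterol synthesis genes was -0.13 with #A and 0.43 with #B, and -0.01 with either for all transcript probes.

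None of the fatty acid enzymes passed a limit with either siBHLHE41 siRNA. FASN read 13.93 for siControl, 13.46 for #A and 14.12 for #B, SCD 15.67, 15.97 and 15.80, and ACLY 12.25, 12.08 and 12.15. ACACA read 11.59, 11.95 and 12.03, above siControl with either siRNA, on average by 0.40 ± 0.05 on the log2 scale (SD, n = 2 siRNAs; limma adjusted p = 0.978). SREBF1, which encodes their main SREBP, read 13.16, 13.10 and 13.27.

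LSS was the gene among the 32 that passed opposite limits in the 2 lines, as did 0.177% of all transcript probes. Its mean log2 ratio in RMG1 minus that in OVCAR3 was -1.86, with limma giving a standard error of 0.37, an unadjusted p of 0.0017 and 0.999 as the adjusted p. For TM7SF2, above siControl with all 4 siRNAs, the same difference was -0.79 (standard error 0.37, adjusted p = 0.999 from limma). Limma called 0 of the 32 genes for this difference at an adjusted p under 0.05, with 1 gene and 4.29% of all probes at an unadjusted p under 0.05.

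Since the siRNAs of a line share 1 siControl array, they were also set against each other directly, which leaves that array out. Sterol synthesis genes read lower with #A than with #B in either line. This held for 16 of the 17 genes in RMG1, all but PMVK, which was not above background, and for 17 of 17 in OVCAR3, against 48.6% and 49.1% of all transcript probes and 53.6% and 50.1% of those above background. In both lines it held for 16 genes (94.1%), beside 23.6% of all probes, and for 14 of the 14 genes above background on all 6 arrays, beside 25.8% of such probes. With quantile normalization TM7SF2 turned in RMG1, which left 13 of these 14, and with median centring it was 14 again. It was also 14 with 1 negative control median, a shift that could only lower #A against #B. The median difference of these 14 genes was -0.74 in RMG1 and -0.35 in OVCAR3, and that of all probes above background was -0.03 and 0.00. With 1 array per siRNA these differences have no replicate check, and the genes of 1 pathway are not independent of each other. The genes were also listed with earlier results of these data known, so the shares describe this list and are no independent test of it.

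In size the genes differed between the lines. HMGCS1 was 1.36 lower with #A than with #B in RMG1 and 1.10 lower in OVCAR3, and SREBF2 1.87 and 0.75 lower. CYP51A1 was 1.14 lower in RMG1 and 0.25 in OVCAR3, and IDI1 1.07 and 0.17. SC5D ran the other way, 0.81 lower in RMG1 and 1.62 in OVCAR3. In RMG1, 10 of the 32 genes lay below the 5th percentile of all probes above background, -0.65: FDPS, MSMO1, HMGCS1, STARD4, ACAT2, CYP51A1, SQLE, IDI1, SC5D and SREBF2. In OVCAR3 the 5th percentile was -0.60 and 10 genes lay below it, of which HMGCS1, SQLE, SC5D, ACAT2 and SREBF2 were also among those of RMG1. Of these 10 in OVCAR3, MVK, ABCA1 and ABCG1 were above background on no OVCAR3 array. LSS and TM7SF2, the genes with both siRNAs past a limit, differed little between siRNAs, by -0.09 and -0.03 in RMG1 and -0.22 and -0.18 in OVCAR3. Of the 5 fatty acid enzymes, 4 also read lower with #A in both lines, FASN by 0.26 and 0.66, whereas SCD was 0.27 higher with #A in RMG1 and 0.17 higher in OVCAR3. Of the 5 transport genes 3 read lower with #A in both lines, and of the 5 genes of SREBP control 1, SREBF2, did.

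Other measures also differed between the siRNAs. The targeted gene read lower with #A than with #B, CPNE8 at 10.67 against 11.92 in RMG1 and BHLHE41 at 12.99 against 13.63 in OVCAR3. All 6 interferon-induced genes examined read lower with siCPNE8 #A than with #B in RMG1, by a median of 1.32 on the log2 scale, and their log2 summed signal was 11.11 for siControl, 12.13 for #A and 13.40 for #B. Of the 6, 3 were above background on all RMG1 arrays. In OVCAR3 2 of the 6 read lower with #A, and the log2 summed signal was 9.96, 10.15 and 10.01. The median of the negative controls was 0.14 higher with siCPNE8 #A than with siControl and within 0.04 of siControl with the other siRNAs. Shifting the arrays to 1 negative control median moves all genes of an array alike. The controls were higher with #A than with #B in either line. The shift can thus only move #A further below #B, and it is no check on that difference. The median difference of the 14 genes above background was then -0.87 in RMG1 and -0.40 in OVCAR3. The part of the targeted genes or of the interferon-induced genes in the difference between the siRNAs was not tested.

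**Figure D3:**
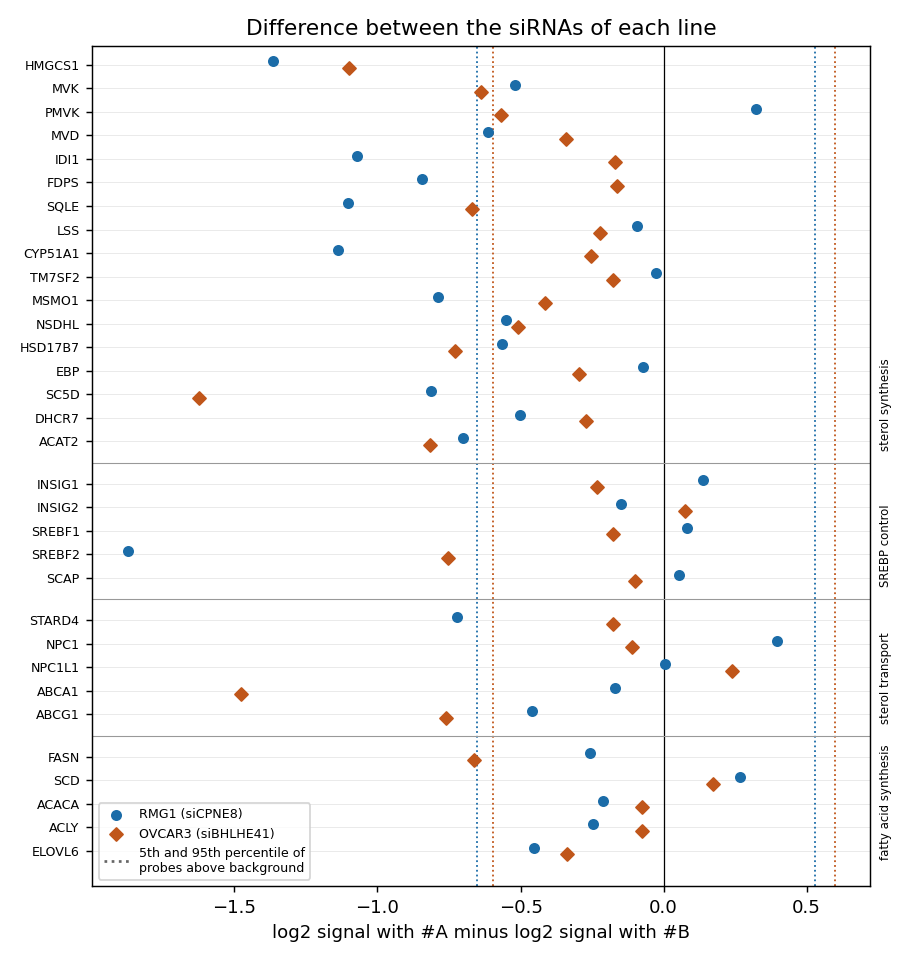
Log2 signal with siRNA #A minus that with siRNA #B (x axis) for each gene (y axis), circles for RMG1 and diamonds for OVCAR3, each a difference of 2 arrays. Dotted lines mark the 5th and 95th percentile of the probes above background, and the sterol synthesis genes, PMVK in RMG1 excepted, lie left of 0 on the values as deposited.

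The lines differed in the levels of many of these genes, with 10 higher in RMG1 and 5 higher in OVCAR3 at a limma adjusted p under 0.05 and a log2 difference of at least 1. Of all transcript probes 10.7% and 12.2% were called, and of probes above background 13.6% and 15.7%. For the 5 genes (15.6%) the share is close to the background, and for the 10 genes (31.2%), of which 9 were above background on all 6 arrays, it is above it. The median size of the difference was 0.99 on the log2 scale over the 32 genes and 0.40 over all transcript probes, and over those above background on all 6 arrays it was 1.02 for the 26 genes and 0.61 for all such probes. Each line is the mean of 3 arrays that differ in siRNA, so the spread within a line includes the knockdowns.

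Of the 17 sterol synthesis genes, 4 were called higher in RMG1 and 4 higher in OVCAR3. TM7SF2 had the widest gap: 8.41, 9.14 and 9.17 on the RMG1 arrays and 11.52, 12.97 and 13.14 on the OVCAR3 arrays, with no overlap. It was 12.4-fold higher in OVCAR3, a log2 difference of -3.64 for RMG1 minus OVCAR3 (limma standard error 0.41, adjusted p = 0.00012). HSD17B7 was higher in RMG1, with 11.11, 11.26 and 11.83 against 8.87, 8.63 and 9.36, a difference of 2.44 (standard error 0.25, adjusted p = 7.7e-05 from limma). SQLE was also higher in RMG1, by 1.83 (standard error 0.30, limma adjusted p = 0.00127), and so were ACAT2 by 1.26 and EBP, which isomerises a sterol double bond, by 1.07. HMGCS1 was higher in OVCAR3 by 2.88-fold, a difference of -1.53 (standard error 0.39, limma adjusted p = 0.0126), and it was not called in the fit of 4 groups. FDPS, farnesyl diphosphate synthase, lay at -1.01 and CYP51A1 at -1.03, both barely past the limit. Without the siCPNE8 #A array FDPS lay at -0.79 and CYP51A1 at -0.66, and 3 genes in place of 5 were called higher in OVCAR3. Without the siBHLHE41 #B array they lay at -0.94 and -0.95, and again 3 genes were called. CYP51A1 was also not called without the OVCAR3 siControl array, at -1.07, or without siBHLHE41 #A, at -1.08, and EBP was not called without the RMG1 siControl array, at 0.98.

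On the siControl arrays alone, LSS was 0.34 higher in RMG1 and SREBF2 0.68 higher, although the means over 3 arrays were 0.91 and 0.57 lower in RMG1 and neither was called. Without the RMG1 siControl array LSS was called higher in OVCAR3 at -1.16, and without that of OVCAR3 at -1.28. IDI1 lay at 0.99 over the 3 arrays, just under the limit, and MSMO1 at 0.74 was not called. DHCR7, the reductase of the last step to cholesterol, and NSDHL, which removes a carboxyl group after the MSMO1 step, were not called at -0.31 and -0.30.

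Genes of SREBP control were split as well. INSIG2 read 11.03, 10.69 and 10.84 in RMG1 and 8.91, 9.09 and 9.02 in OVCAR3, higher in RMG1 by 3.59-fold (log2 difference 1.85, limma standard error 0.17, adjusted p = 3.3e-05). INSIG1 was higher in RMG1 by 1.08 (standard error 0.17, limma adjusted p = 0.00091), and by 0.99, under the limit, without the OVCAR3 siControl array. SREBF1 and SCAP were lower in RMG1 by 0.98 and 0.81, with limma adjusted p of 0.001 and 0.0058, but short of a log2 difference of 1. STARD4 was higher in RMG1 by 1.42 (standard error 0.30, limma adjusted p = 0.0051). ABCA1, the transporter that loads cholesterol onto apolipoprotein, had a mean of 8.58 in RMG1 and was above background on no OVCAR3 array, so its difference has only a bound. It was at least 1.29-fold higher in RMG1, taking the mean background of the OVCAR3 arrays, 8.21, in place of its value there (limma adjusted p = 0.0035 on the measured values).

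Of the fatty acid enzymes, those that make malonyl-CoA from citrate were higher in RMG1 and the elongase in OVCAR3. ACACA read 13.82, 13.72 and 13.93 in RMG1 and 11.59, 11.95 and 12.03 in OVCAR3, a 3.91-fold gap (log2 difference 1.97, limma standard error 0.18, adjusted p = 3.4e-05). ACLY was higher in RMG1 by 1.71 (standard error 0.18, limma adjusted p = 7.6e-05). ELOVL6 was higher in OVCAR3, with 13.41, 13.28 and 13.62 against 11.73, 11.96 and 12.41, a difference of -1.41 (standard error 0.21, limma adjusted p = 0.00069). FASN and SCD lay at -0.75 and -0.43 and were not called.

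**Figure D4:**
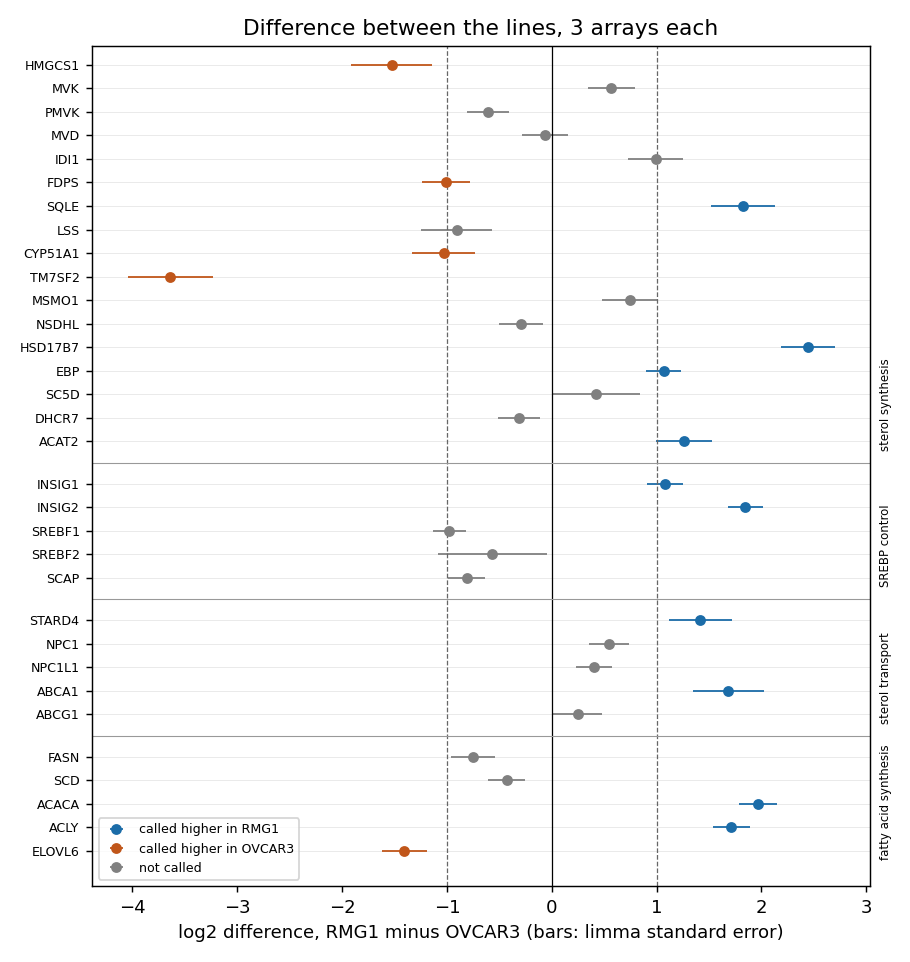
Difference in mean log2 signal, RMG1 minus OVCAR3 (x axis, 3 arrays each), for each gene (y axis), with the limma standard error as bars and dashed lines at a difference of 1 either way. Blue marks genes called higher in RMG1, orange genes called higher in OVCAR3 and grey genes not called, and TM7SF2 at -3.64 and HSD17B7 at 2.44 lie at the ends.

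Of 67 further genes of these pathways listed from general knowledge, 55 had a probe, and with both siCPNE8 siRNAs 3 were over 1.5-fold and 0 were below 0.66-fold, beside 2.56% and 2.69% of all transcript probes. Those over 1.5-fold were CYP27A1, a sterol hydroxylase (log2 ratios 2.30 and 0.62), GRAMD1C, a sterol transfer protein (1.33 and 0.65), and SLC25A1, which exports citrate from mitochondria (0.65 and 0.66). CYP27A1 and SLC25A1 were above background on 2 of 3 RMG1 arrays, so the size of their ratios is uncertain. With both siBHLHE41 siRNAs 2 were over 1.5-fold, PDSS2 of coenzyme Q synthesis and the elongase ELOVL2, neither above background in OVCAR3, and 5 were under 0.66-fold, beside 3.09% and 2.13% of all probes. Among the latter, LRP8, a receptor of lipoproteins and reelin, read 11.02 for siControl, 9.37 for #A and 9.19 for #B, at log2 ratios of -1.65 and -1.83. ME1, which supplies NADPH for fatty acid synthesis, had -0.61 and -0.90. THRSP, a lipogenic factor, had -2.22 and -1.26 and ELOVL4, which elongates very long fatty acids, -0.88 and -0.83, each above background on 2 of 3 arrays, and CH25H, a cholesterol hydroxylase, was above background on none. Limma adjusted p under 0.05 was reached by 0 of these genes. In RMG1 the lists of isoprenoid and of sterol sensing genes had no gene past a limit with both siRNAs, and their widest mean ratios over both siRNAs were those of GGPS1, which makes geranylgeranyl diphosphate (0.61 and 0.48), the prenyltransferase subunit FNTA (0.52 and 0.33), ERLIN2 (0.68 and 0.25) and PAQR3 (-0.30 and -0.30). In OVCAR3 the sterol sensing list had none either, and its widest means were those of PAQR3, which anchors SCAP in the Golgi (-0.58 and -0.82), and the ubiquitin-conjugating enzyme UBE2G2 (0.68 and 0.29). ERLIN1 had wider single ratios of opposite sign, 0.42 and -1.33, and was named after its values were seen.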

How the data were processed

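Total RNA of RMG1 and OVCAR3 cells was hybridised to Affymetrix Clariom S arrays, 1 per siRNA. The authors deposited log2 values of 24351 probes. According to the submitters' processing notes they come from RMA, run in Affymetrix Expression Console, with versions and annotation build not given in the sources used here. RMA subtracts a modelled background, quantile-normalizes the arrays and merges the probes of a transcript, so a dim gene near background keeps little of its ratio. The 2903 control probes were left out of tests, which leaves 21448 transcript probes, 17709 of them with a gene symbol. The members, pathway lists and markers were chosen with earlier results of these data known. All members may be named, and so may the targets, BHLHE40 and, of each pathway list, genes past a limit with both siRNAs or, with none, the 2 with the widest mean ratio among those above background.

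Ratios over 1.5 or under 0.66 with both siRNAs follow the study's criterion. Probes were tested with limma 3.58.1 in R 4.3.3 (lmFit, eBayes, Benjamini-Hochberg over all transcript probes). The knockdown fit of 4 groups has 2 residual degrees of freedom and assumes that siControl arrays vary like the siRNA pairs. The line fit has 4. Both were tested on simulated data, in which both siRNAs of a line had the same change, unlike many genes here. The knockdown fit did not call the targeted genes either. CPNE8, at 0.117-fold and 0.278-fold in RMG1, had a limma adjusted p of 0.859. BHLHE41, at 0.350-fold and 0.542-fold in OVCAR3, had 0.914. A gene that limma did not call is therefore not shown to be unchanged. The number of arrays limits the precision, and no probe position or sequence was used. Alternatives were other fold limits, scalings, filters, fits and each array left out. The fits on probes above background and on values shifted to the negative controls were chosen after seeing the data.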

Additional observations from a re-analysis of the deposited data

Results flagged for a closer look

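LSS differed between the knockdowns of the 2 lines, since it lay under siControl with both siCPNE8 siRNAs in RMG1 and over siControl with both siBHLHE41 siRNAs in OVCAR3. Its mean log2 ratio in RMG1 minus that in OVCAR3 was -1.86, and the limma test of that difference had an unadjusted p of 0.0017 and an adjusted p of 0.999 over all transcript probes. In RMG1 the siRNA arrays, at 8.17 and 8.26, were close to background, and line, targeted gene and siRNA sequence cannot be told apart.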

How the results depend on the processing

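With fold limits of 2 and 0.5, 0 genes were over and 0 under the limits with both siRNAs in RMG1, and in OVCAR3 1, TM7SF2, was over and 0 were under. Leaving out an siRNA makes the count that of the other siRNA: 1 to 4 genes over and 1 to 7 under in RMG1, the 4 without #A and the 7 without #B, and 2 to 6 over and 1 to 3 under in OVCAR3, the 6 without #A and the 3 without #B. Shifting the arrays to 1 negative control median left 0 genes over 1.5-fold in RMG1, with TM7SF2 at a log2 ratio of 0.66 on average, since the shift of 0.14 for #A takes it under the log2 limit of 0.58. For the lines, 3 genes in place of 5 were called higher in OVCAR3 with median centring, which lost FDPS and CYP51A1, 3 with the siControl arrays alone and 2 in the fit of 4 groups, which lost HMGCS1, FDPS and CYP51A1. Leaving out 1 array in turn gave 3 to 7 genes higher in OVCAR3, 9 to 11 higher in RMG1 and 17 to 21 at an adjusted p under 0.05, with 3 higher in OVCAR3 without siCPNE8 #A and without siBHLHE41 #B. Of the counts repeated under the alternatives, 103 stayed within 1.5 times of the value in the report and 14 did not. The 103 include counts of 0 that stayed 0, and limma counts under changed fold limits, which do not enter them. They therefore do not measure how stable the fold counts are. Limma called 0 genes in either knockdown and 0 for their difference under every alternative run. No paired analysis was possible because the letters #A and #B name different siRNAs against different genes and each line has 1 siControl array. Signal over background limits PMVK, MVD, MVK, NPC1L1 and ABCG1 in either line and ABCA1 in OVCAR3.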
